A study of Mus musculus with 57 samples.

Results

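Small nucleolar RNAs (snoRNAs) were followed through 57 microarrays of mouse kidney, 51 of them from ribosome pull-downs. Members were the probe sets that carry exactly 1 gene symbol, that symbol beginning with Snord or Snora and a digit, and that had a log2 value above 5 in 3 or more arrays. Of 51 such symbols (31 box C/D and 20 H/ACA), 47 were members, 28 box C/D and 19 H/ACA, among 19302 genes tested. The 4 others, Snora2b, Snord38a, Snord58b and Snord61, were above 5 in 0 arrays, and their highest values were 4.99, 4.99, 4.77 and 4.90. The members nearest the threshold on the inside were Snord118, above 5 in 7 arrays, and Snora75 and Snord87, above 5 in 10 arrays each. A further 41 probe sets that name a snoRNA together with another gene were left out.

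SnoRNAs are short noncoding RNAs of the nucleolus. Most mouse snoRNAs are cut out of the introns of host genes, many of which encode ribosomal proteins or factors of translation. Box C/D snoRNAs guide 2'-O-methylation of ribosomal RNA with the methyltransferase fibrillarin, and H/ACA snoRNAs guide pseudouridylation with dyskerin (Dkc1). A few, among them Snord118 (U8) and Snora73a and Snora73b (copies of U17), act in the cutting of pre-ribosomal RNA instead.

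The pull-downs were made by translating ribosome affinity purification (TRAP): anti-GFP beads bind a GFP-tagged ribosomal protein L10a and the RNA attached to it. The tag, Rosa26-CAGGS-eGFPL10a, was switched on by six2-CRE (nephron), foxd1-CRE (interstitial), cdh5-CRE (endothelial) or lyz2-CRE (myeloid) in male mice of mixed C57BL/6 and 129 background. Per the series design text, foxd1-CRE is also active in podocytes. Ischemia-reperfusion injury (IRI) was 28 min of clamping both renal pedicles, and sham mice had the operation without clamping. Each line had 3 arrays 24 h after IRI, 3 taken 24 h after sham surgery and 3 without surgery. The nephron line had 3 more 4 h after IRI, with no sham arrays at that time. Nephron mice were 8 weeks old, or 6 weeks without surgery. Interstitial and endothelial mice were 6 weeks old. Myeloid mice were 9.5 weeks old in the IRI group and 7 weeks in the others.

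Pull-downs without a Cre served as background. The first kind came from untagged mice, labelled C57BL/6 wild type with a mixed strain tag (8 weeks, 4 IRI and 2 sham arrays). The second came from mice with Rosa26-CAGGS-eGFPL10a/+ and no Cre (8 weeks, 4 IRI and 2 sham arrays), a genotype that another label calls homozygous. Per the labels, podocytes and a subset of the collecting duct gave background signal in the latter. Whole-kidney total RNA of L10a heterozygous mice without Cre filled 6 arrays (8 weeks, 3 IRI and 3 sham). Total RNA was normalized apart from TRAP RNA, with median intensities of 43.9 to 53.3 against 105.8 to 128.4, so it was compared only within itself. The labels call arrays of a group biological replicates and say no more of the animals.

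The markers fixed for each cell type followed the labels in part. The summed log2 level of 5 myeloid markers was 13.22 to 15.03 in myeloid and endothelial arrays and at most 12.83 in the other pull-downs. Endothelial markers (5 genes) were at 14.63 to 14.79 in endothelial arrays. Interstitial markers (5 genes) were at 13.25 to 13.62 in interstitial arrays, close to the 12.97 to 13.11 of untagged sham arrays. Nephron markers (6 genes) were at 14.62 to 15.28 in nephron arrays and at 15.06 to 15.67 in untagged arrays. In these bulk samples, fewer cells of a type and less RNA per cell cannot be told apart.

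Members lay in short genes, with a median annotated length of 72 nt for box C/D and 128 nt for H/ACA (all 47 between 45 and 205 nt). By RefSeq position on GRCm38.p6, 46 of 47 lay within another gene, and Snord118 did not. A probe set reads the letters of the snoRNA, whether they sit in the mature RNA or in the intron that holds it, so the 2 forms cannot be told apart. How much RNA this short the RNeasy columns kept was not tested, so the values are not a measure of mature snoRNA alone. Related copies, such as Snora73a and Snora73b or Snord15a and Snord15b, may share probe signal, which was not tested. Snora30 and Snord118 each had 2 probe sets with identical values in all 57 arrays. The 2 probe sets of Snora21 differed by a median of 0.105 and by up to 0.802 on the log2 scale.

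Snord33 shows what defines the larger class. It lies in Rpl13a, a ribosomal protein gene, at chr7:45126864-45126945 on the minus strand. RefSeq gives a mature miRNA, mmu-miR-5121, at chr7:45126925-45126945, which are the first 21 bases of Snord33, and that sequence carries box C. The capitals mark the box C letters UGAUGA, bases 7 to 12.

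mmu-miR-5121: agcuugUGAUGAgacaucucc

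The starts of the host genes were read for a feature that the selection did not use. Ribosomal protein and other growth-linked genes often begin with a run of pyrimidines (C or T) at the first transcribed base, known as a terminal oligopyrimidine tract, which couples their translation to growth signals. RefSeq promoter windows were read for 29 of 40 host genes, 31 windows in all. Any window of Snhg4, the host of Snora74a, was set aside before this count. Nothing was set aside from the whole table of windows, so the host share and the whole-table share were not counted alike. A run of 6 or more pyrimidines that covers the first transcribed base was present in 9 of these 31 windows (29.0%) and in 2381 of 32851 windows of the whole table (7.25%). Thus 22 of the 31 host windows lacked it. The reading depends on the exact base that RefSeq gives as first. Run lengths were 0 and 7 in the windows of 1110038B12Rik, and 0 and 6 in those of Gas5. A window without a run at that base therefore does not show that the transcripts of the gene lack such a tract. Below, 30 bases are given for the hosts of the members described most fully later, so far as a window was found. The first transcribed base is base 11, on GRCm38.p6, and capitals mark a run of 6 or more pyrimidines through that base. Of these hosts, Ipo7 and Gm36220 had such a run at the start RefSeq gives, and the others did not.
Ipo7 (Snora23), chr7:110018305-110018334, plus strand: gCTTCTCTTTCCTTTCgcgccggttgccgc
Gm36220 (Snord104), chr11:106500905-106500934, plus strand: ccattccggCCTCTTatcgacggggactgc
Rps3a1 (Snord73a and Snord73b), chr3:86142649-86142678, minus strand: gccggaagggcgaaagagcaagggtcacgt
Rpl23 (Snora21), chr11:97782420-97782449, minus strand: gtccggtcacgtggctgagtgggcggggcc
Rpl4 (Snord16a), chr9:64173377-64173406, plus strand: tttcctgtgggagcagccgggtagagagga
Nop56 (Snord57), chr2:130274402-130274431, plus strand: tggtctccgcagtctggttccgcgcgccag
Ncl (Snora75 and Snord82), chr1:86359436-86359465, minus strand: cggggacggacgcgagctctggttggtgga

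Across the 17 TRAP groups the group means of a member spanned a median of 0.97 on the log2 scale, 1.25 for box C/D and 0.76 for H/ACA, beside 1.34 for all genes. The highest of the 17 means was in untagged wild type after IRI for 28 of 47 members, 16 of 28 box C/D and 12 of 19 H/ACA. It was in interstitial IRI for 12 members, in interstitial sham for 2 and in endothelial IRI for 2. Where the highest mean lay was not counted over all genes. Members also followed one another across the 51 TRAP arrays: the median Pearson r over all 1081 pairs was 0.60. It was 0.57 within box C/D, 0.64 within H/ACA and 0.62 between the classes. These arrays share groups and normalization, and the values are descriptions.

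Counting members more than 2-fold above their own median over the 51 TRAP arrays showed where their signal was high. The same count was not made over all genes, so it does not show whether snoRNAs differed from other genes. Untagged IRI arrays had 17, 9, 16 and 15 such members, and untagged sham arrays 2 each. Interstitial IRI arrays had 16, 20 and 3, and interstitial sham arrays 8, 12 and 9. Interstitial IRI replicate 3 thus stood apart from the others of its group. All nephron, endothelial and myeloid arrays had 0 to 2, every array without surgery except 1 myeloid array had 0, and L10a arrays without Cre had 0 to 2 except 1 IRI array with 7.

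**Figure D1:**
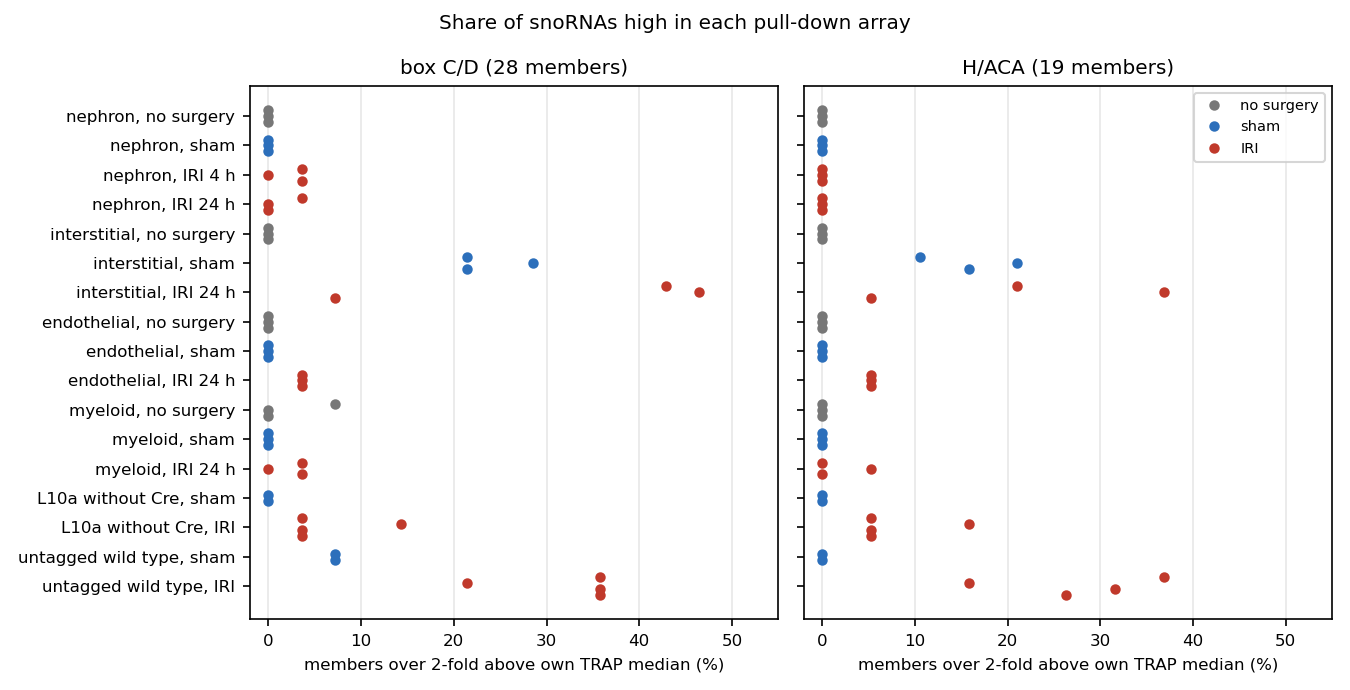
Share of the 28 box C/D members (left) and 19 H/ACA members (right) that lay more than 2-fold above their own median over 51 TRAP arrays, 1 point per array, by group. High shares were seen in untagged wild type after IRI, in interstitial sham and in 2 of 3 interstitial IRI arrays. The share over all genes was not computed.

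The response to IRI was first measured where no tag was present. In untagged mice, 24 of 47 members rose and 0 fell 24 h after IRI (limma, adjusted p under 0.05), beside 20.2% of all genes that rose and 17.7% that fell. Of the classes, 15 of 28 box C/D and 9 of 19 H/ACA members rose. Median log2 differences were 0.54 and 0.44, and 0.04 over all genes. Both sham arrays bore on this count: it was 14 with sham replicate 1 left out and 14 with sham replicate 2 left out. The lone sham array is then assumed to vary like the other groups, here and wherever 1 of the 2 sham arrays of untagged or L10a mice is left out. Members had low signal: their median mean level over TRAP arrays was 5.65, beside 7.92 for all genes tested. Some had a TRAP median below the threshold of 5 and became members through arrays where they were high. Snord37, Snora75 and Snord73b, for example, had medians of 4.82, 4.88 and 4.99 and lowest values of 4.65, 4.69 and 4.79. Such members had little room to fall. The part of this in the counts that rose or fell was not tested, here or in later comparisons.

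Snord73b, a box C/D snoRNA in an intron of the ribosomal protein gene Rps3a1 (chr3:86140617-86140687), had the largest rise. Its log2 values were 8.99, 7.55, 10.54 and 9.88 in the 4 untagged IRI arrays and 6.24 and 5.55 in the 2 sham arrays. All 4 IRI arrays were above both sham arrays, although they spread widely among themselves. The difference was 3.34 ± 0.52 (SE), a 10.1-fold rise (limma adjusted p = 1e-06). Its neighbour in the same host, Snord73a, was at 5.26, 5.29, 5.26 and 5.54 after IRI and 5.16 and 5.31 after sham, so the groups overlapped. The 2 had an r of 0.43 over 51 arrays.

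Snord16a, a box C/D snoRNA in Rpl4 (chr9:64175432-64175522), stood at 7.21, 7.56, 8.33 and 7.91 after IRI and 5.70 and 5.36 after sham. The groups did not overlap, and the rise was 2.22 ± 0.28 (4.67-fold, limma adjusted p = 1.1e-08). Snord104, a box C/D snoRNA in the noncoding gene Gm36220 (chr11:106500991-106501063), rose from 8.12 and 7.97 to 9.86, 9.51, 10.18 and 9.93. That rise was 1.83 ± 0.34 (3.55-fold, limma adjusted p = 2.8e-05).

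Among H/ACA members, Snora23 had the largest rise. It lies in Ipo7, which encodes a nuclear import receptor, at chr7:110046364-110046547. Its values were 7.92, 8.33, 8.23 and 8.36 after IRI and 6.89 and 6.35 after sham, a difference of 1.59 ± 0.28 (3.01-fold, limma adjusted p = 1.3e-05). The IRI arrays were tight and lay above both sham arrays.

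Snord57 lies in Nop56, the gene of a core protein of box C/D particles (chr2:130278026-130278088). It was at 10.23, 9.64, 10.37 and 10.22 after IRI and already at 8.58 and 8.79 after sham. Its rise of 1.43 ± 0.57 had an adjusted p of 0.045 in limma, and it did not pass in a fit of the TRAP arrays alone or after quantile normalization (1.32), nor without IRI replicate 1, 3 or 4 or either sham array. Snord82, in the nucleolin gene Ncl, was at 9.47, 7.40, 7.81 and 7.34 after IRI and 7.40 and 7.59 after sham. Its groups overlapped, and it was not called.

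Of the fixed panel of well-studied members, 3 rose in untagged mice: Snora73a by 0.98 ± 0.19, Snord33 by 0.97 ± 0.26 and Snord35a by 0.90 ± 0.27 (limma adjusted p = 3.4e-05, 0.0023 and 0.0062). Snord33 and Snord35a both lie in Rpl13a. Snord118, needed for maturation of the large ribosomal subunit, was at 5.80, 5.24, 5.55 and 4.92 after IRI and 4.98 and 4.88 after sham. Its groups overlapped and it was not called, nor were Snora73b, Snord14e and Snord47.

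Other RNAs moved in untagged mice as well. Of 16 other short or nuclear noncoding RNAs, 7 rose and 0 fell (median 0.30), among them Rpph1, the RNA of ribonuclease P, by 1.09 (limma adjusted p = 0.00029), and Rmrp by 0.61 (0.0068). This list is not wholly apart from snoRNAs. It holds Rnu3a (U3), a box C/D snoRNA whose symbol the member rule does not match. It also holds the related guide RNAs Scarna8, Scarna13 and Scarna17, and Terc, which has an H/ACA part. Ribosomal protein genes, picked by symbol, rose in 37 of 42 cases (median 0.87). That list is not the whole family: it lacks measured genes such as Rps3 and Rps12. It also holds Rps19bp1, a binding protein, and paralogs such as Rpl3l. Proteins of snoRNA particles and their assembly rose in 11 and fell in 1 of 20 (median 0.70). Marker lists moved too: 3 of 6 nephron markers fell, 3 of 5 endothelial markers rose and 1 fell, 1 of 5 myeloid markers rose and 2 fell, and 1 each of the interstitial, podocyte and collecting duct markers fell. The part of these in the snoRNA result was not tested.

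**Figure D2:**
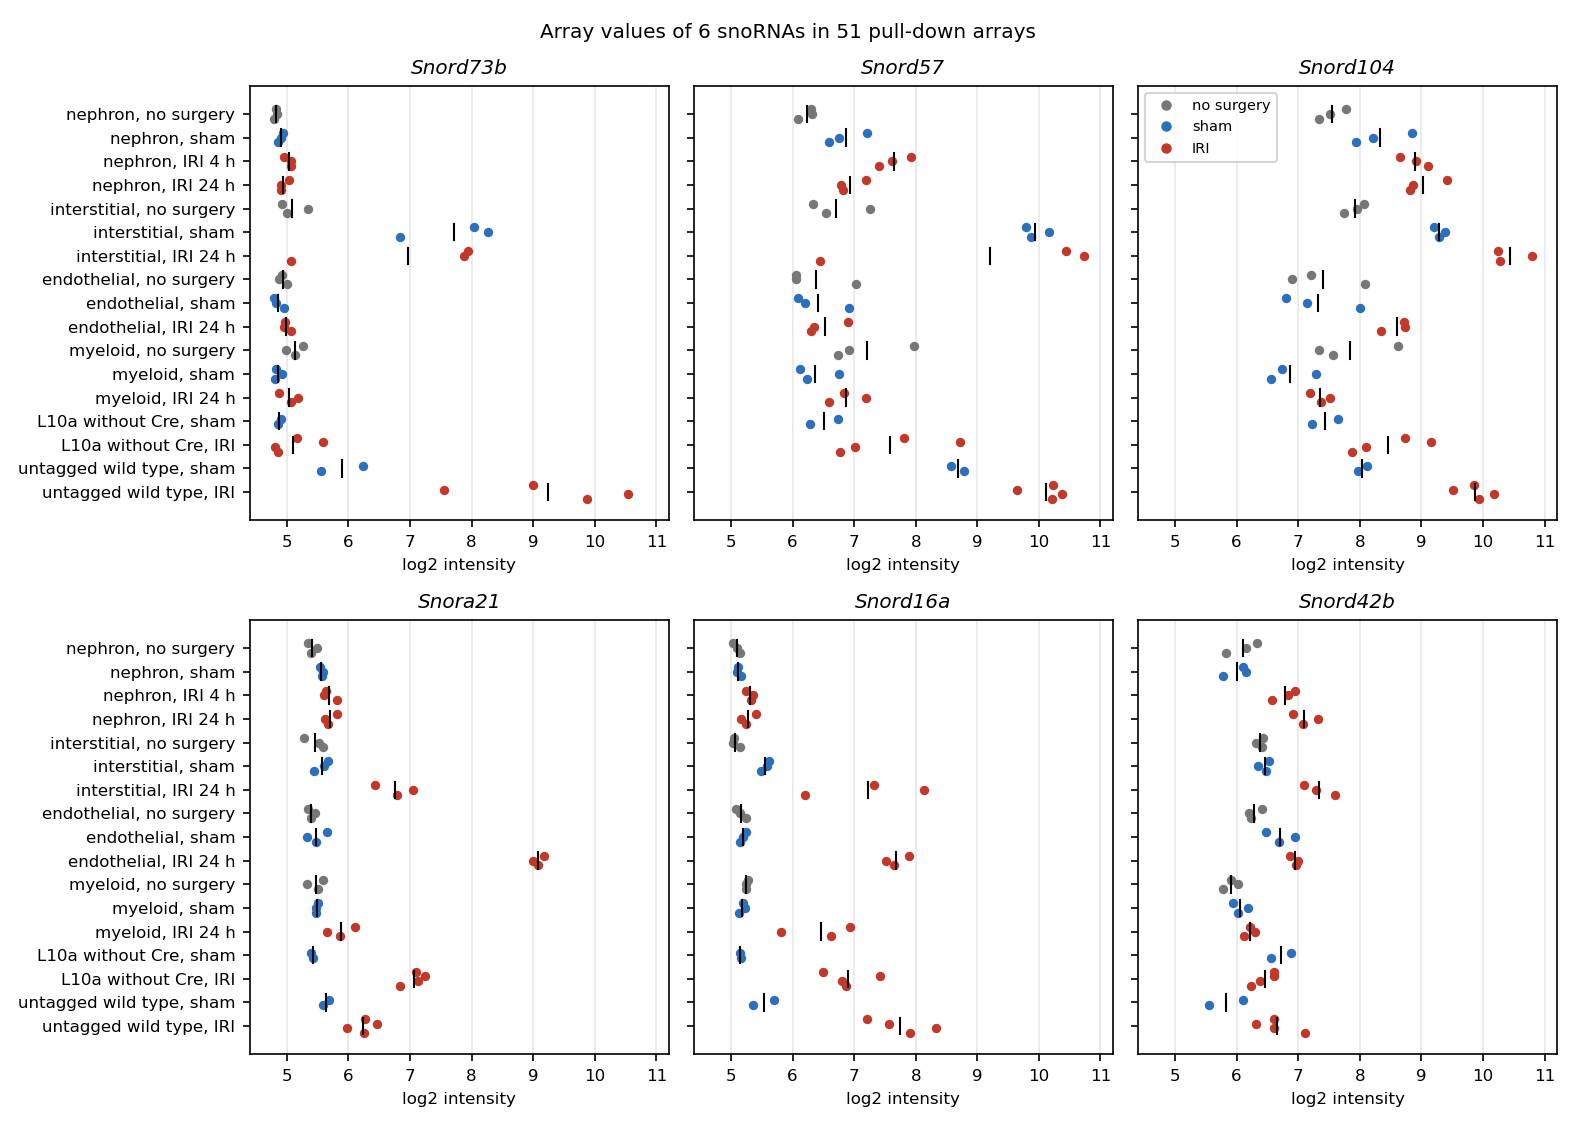
Log2 intensity of 6 snoRNAs in every TRAP array by group, with points for arrays and a black line for the group mean. Snord73b and Snord57 were highest in untagged IRI, interstitial sham and 2 of 3 interstitial IRI arrays, Snora21 was highest in endothelial IRI (9.00 to 9.17), and Snord42b rose in nephron IRI.

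In the tagged lines, fewer members were called after IRI at 24 h. The fit gives each gene 1 estimate of spread over all groups. The SE of Snord57, for example, was 0.54 in both nephron and endothelial IRI. A member that spreads widely in 1 group thus needs a larger difference to be called in every group. A member not called is therefore not shown to be unchanged. The part of this shared spread and of the members' low signal in the counts was not tested. In the nephron line, 1 of 47 rose and 1 fell, beside 13.8% and 14.7% of all genes. Snord42b, a box C/D snoRNA in Rpl23a, went from 6.11, 6.15 and 5.78 after sham to 6.91, 7.32 and 7.07 after IRI. The IRI arrays were all higher, and the rise was 1.09 ± 0.18 (2.12-fold, limma adjusted p = 6.2e-06). Snora62, an H/ACA snoRNA in Rpsa, fell by 0.24 (limma adjusted p = 0.018), a call lost without IRI replicate 1 or sham replicate 1 or 3. At 4 h, where 7.60% of all genes rose and 10.8% fell, Snord42b was the 1 member called, with 6.94, 6.83 and 6.58, a rise of 0.77 ± 0.18 (limma adjusted p = 0.0014). The 4 h and 24 h comparisons share the sham arrays, which were taken 24 h after surgery. In the 4 h comparison, IRI and time after surgery therefore cannot be told apart. Without nephron sham replicate 3 or IRI replicate 1 the 24 h total of 2 became 1, and without sham replicate 1 or 2 the 4 h total became 2. Fits of only the groups compared gave totals of 4 at 24 h and 14 at 4 h, and a fit of TRAP arrays only gave 4 at 4 h. Between 24 h and 4 h, Snora41 was 0.38 higher and Snora62 0.28 lower at 24 h (limma adjusted p = 0.006 and 0.0049), beside 14.8% of genes higher and 12.7% lower, and the call of Snora62 was lost without 4 h replicate 3, while a fit of these 2 groups alone gave 8. At 24 h 3 of 6 nephron markers fell and 3 of 5 endothelial markers rose, and their part was not tested.

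In the endothelial line 9 of 47 members rose and 0 fell, 6 of 28 box C/D and 3 of 19 H/ACA, beside 21.1% of genes that rose and 21.7% that fell. Leaving out endothelial sham replicate 2 gave 4, and leaving out endothelial IRI replicate 1 or sham replicate 1 gave 5, while a fit of these 2 groups alone gave 19. Snora21, an H/ACA snoRNA in Rpl23 (chr11:97781639-97781766), had by far the largest rise. It was at 9.17, 9.00 and 9.08 after IRI, at 5.65, 5.33 and 5.47 after sham and at 5.34, 5.45 and 5.40 without surgery. IRI arrays were more than 3 log2 units above all others of the line, a rise of 3.60 ± 0.17 (12.1-fold, limma adjusted p = 2.2e-20). Its host Rpl23 rose by 0.37 ± 0.12 (limma adjusted p = 0.012). Snord16a was at 7.89, 7.51 and 7.64 against 5.25, 5.19 and 5.15 after sham, a rise of 2.48 ± 0.26 (limma adjusted p = 1.8e-10). Snord104 rose by 1.28 ± 0.32 (0.0012). Of markers, 4 of 5 myeloid markers fell in the same comparison, 2 of 6 nephron markers fell and 1 rose, and their part was not tested.

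In the interstitial line 12 of 47 members rose and 0 fell after IRI, 7 box C/D and 5 H/ACA, beside 19.2% and 19.9% of all genes. Without interstitial IRI replicate 3 the count was 20, without replicate 1 it was 6 and without replicate 2 or sham replicate 1 it was 7. It was 6 in a fit of these 2 groups alone. Snord16a rose from 5.61, 5.59 and 5.48 to 7.32, 8.14 and 6.20 (1.66 ± 0.26, limma adjusted p = 1.5e-06). Snora21 rose from 5.67, 5.61 and 5.44 to 6.43, 7.05 and 6.79 (1.18 ± 0.17, limma adjusted p = 4.6e-07). Snord104 rose from 9.20, 9.39 and 9.28 to 10.25, 10.79 and 10.27 (1.15 ± 0.32, limma adjusted p = 0.004). For these 3 the groups did not overlap, IRI replicate 3 included. In the same comparison 4 of 6 nephron, 4 of 5 myeloid and 2 of 3 collecting duct markers fell, 2 of 5 endothelial markers rose and 1 fell. Their part in the result was not tested.

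Other members split IRI replicate 3 from its group. Snord57 was at 10.44, 10.73 and 6.44 in the interstitial IRI arrays, Snord82 at 10.03, 10.65 and 6.63, and Snord73b at 7.95, 7.88 and 5.07. In each case that array lay near the values without surgery, while Snora21, Snord104 and Snord42b (7.10, 7.29 and 7.59) did not drop there. The 16 other short or nuclear RNAs had median deviations from their TRAP medians of 0.24, 0.35 and 0.05 in the same arrays, and the 42 ribosomal protein genes 0.42, 0.36 and 0.33.

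In the myeloid line 1 of 47 members rose, beside 13.2% of genes that rose and 14.6% that fell. This was Snord16a, at 6.94, 5.82 and 6.62 after IRI and 5.19, 5.23 and 5.13 after sham (1.28 ± 0.26, limma adjusted p = 0.00014). Myeloid IRI mice were 9.5 weeks old and myeloid sham mice 7 weeks, so IRI and age cannot be told apart in this line. Without myeloid IRI replicate 2 the count was 2, and it was 7 in a fit of these 2 groups alone and 3 with TRAP arrays only. In mice with L10a and no Cre, 5 of 47 rose and 0 fell, beside 19.0% and 19.4% of genes: Snord16a by 1.74 ± 0.28, Snora21 by 1.66 ± 0.18, Snord104 by 1.03 ± 0.34, Snora73a by 0.64 ± 0.19 and Snord55 by 0.38 ± 0.12 (limma adjusted p = 1.9e-06, 1.2e-09, 0.015, 0.0053 and 0.0095). That count was 3 without sham replicate 1 and 8 without IRI replicate 4, 13 in a fit of these 2 groups alone and 10 with TRAP arrays only. Snora73a and Snord55 were lost without sham replicate 1, and Snord104 without sham replicate 2 or IRI replicate 2. Nephron markers fell beside these results in 5 of 6 cases in the myeloid line and in 3 of 6 cases in L10a mice, and 3 of 3 collecting duct markers fell in each. Of 5 endothelial markers, 3 rose in the myeloid line, and 3 rose and 1 fell in L10a mice. Their part was not tested.

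Whether the 4 lines responded differently was tested with a moderated F test of their 4 IRI responses. It called 6 of 47 members, beside 46.4% of all genes: Snora21 (limma adjusted p = 7.8e-15), Snord16a (2.3e-05), Snord42b (0.0038), Snord55 (0.0089), Snord14e (0.035) and Snora62 (0.043). Snora21 rose in the endothelial and interstitial lines. In the nephron line it was at 5.82, 5.62 and 5.67 after IRI and 5.54, 5.58 and 5.57 after sham, and in the myeloid line at 6.11, 5.66 and 5.87 after IRI and 5.51, 5.47 and 5.47 after sham, and it was called in neither. Snord16a was called in the 3 other lines and not in nephron, where it was at 5.41, 5.17 and 5.24 after IRI and 5.12, 5.09 and 5.16 after sham. Without interstitial IRI replicate 3 the F test called 14 members.

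The lines were also compared without surgery. The F test among the 4 lines called 1 of 47 members, Snord42a (limma adjusted p = 0.011), beside 60.3% of all genes, 0 without nephron replicate 2, 6 in a fit of these groups alone and 5 with TRAP arrays only. At an unadjusted p under 0.05 the F test also called 1 member, beside 12190 of all 19302 genes. The part of the members' low signal in these counts was not tested.

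Interstitial sham mice were compared with interstitial mice without surgery. Sham mice had 13 of 47 members higher and 0 lower than mice without surgery, beside 5.37% of genes higher and 4.70% lower. Of the classes, 9 of 28 box C/D and 4 of 19 H/ACA rose, with medians of 0.40 and 0.19 against -0.04 over all genes. The count was 20 when only TRAP arrays were fitted. Snord57 rose from 6.34, 7.26 and 6.54 to 9.79, 10.17 and 9.87 (3.23 ± 0.54, 9.39-fold, limma adjusted p = 0.00011). Snord82 rose from 6.10, 6.98 and 6.85 to 9.62, 10.30 and 9.90 (3.29 ± 0.72, 9.81-fold, limma adjusted p = 0.002). Snord73b rose from 4.92, 5.34 and 5.00 to 8.04, 8.26 and 6.83 (2.62 ± 0.49, 6.15-fold, limma adjusted p = 0.00038). The groups did not overlap for any of these.

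Snord14e, a box C/D snoRNA in the chaperone gene Hspa8, was at 6.25, 6.74 and 6.49 without surgery and at 8.28, 8.29 and 8.40 after sham, a rise of 1.83 ± 0.26 (limma adjusted p = 1.4e-05). Snora23 was at 5.75, 5.83 and 5.97 and then at 7.34, 7.70 and 7.36, a rise of 1.61 ± 0.27 (limma adjusted p = 9.9e-05). Both separated cleanly by group. Of the panel, Snora73b and Snora73a also rose, by 1.25 ± 0.27 and 0.80 ± 0.18 (limma adjusted p = 0.0018 and 0.002).

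In the same comparison 4 of 16 other short or nuclear RNAs rose and 0 fell. They were Malat1, a long nuclear RNA, by 1.99 (limma adjusted p = 0.00015), Scarna13, a guide RNA of Cajal bodies, by 1.01 (0.0014), Rpph1 by 0.70 (0.041) and Rn7sk by 0.54 (0.034). Ribosomal protein genes did not follow (0 of 42 rose and 3 fell), and of 20 genes for particle and assembly proteins 0 rose and 1, Nhp2, fell by 0.65 (0.0032). Of markers, 2 of 6 nephron and 1 of 5 endothelial markers were higher, and the interstitial sum was 13.25 to 13.47 after sham and 13.43 to 13.62 without surgery. Their part in the result was not tested.

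In the other 3 lines sham surgery called 0 of 47 members by limma. All genes called came to 1.74% in nephron, 0.850% in endothelial and 1.58% in myeloid. Members with an unadjusted limma p under 0.05 numbered 4, 1 and 1 of 47, beside 2298, 987 and 1982 of all 19302 genes. In nephron 1 member was called in a fit of the groups compared and 1 with TRAP arrays only. The interstitial mice were 6 weeks old in both groups, as were the endothelial mice, and the myeloid mice were 7 weeks old in both. Nephron mice were 8 weeks old after sham and 6 weeks without surgery, so surgery and age cannot be told apart there.

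The snoRNAs and their host genes were then set side by side. Of the members, 27 had a host measured by a probe set of its own, 23 hosts in all. In untagged mice after IRI, 15 of these 27 members rose, and the host of 10 was also called higher, where 15 of all 23 hosts were. Rps3a1 rose by 1.35 ± 0.31 (limma adjusted p = 0.00037), beside 3.34 for its Snord73b. Rpl4 rose by 1.02 ± 0.12 (1.6e-09), beside 2.22 for Snord16a. Nop56 differed by 0.28 ± 0.25 (0.42) beside 1.43 for Snord57.

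In interstitial sham mice, 6 of the 27 rose and the host of 2 was also called higher, where 4 of all 23 hosts were. Nop56 differed by 0.03 ± 0.23, Rps3a1 by 0.07 ± 0.29 and Ncl by 0.13 ± 0.13 (limma adjusted p = 0.97, 0.94 and 0.64), beside rises of 3.23, 2.62 and 3.29 in Snord57, Snord73b and Snord82. In interstitial IRI mice, 6 of the 27 rose and the hosts of all 6 were also called higher, where 18 of all 23 hosts were.

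**Figure D3:**
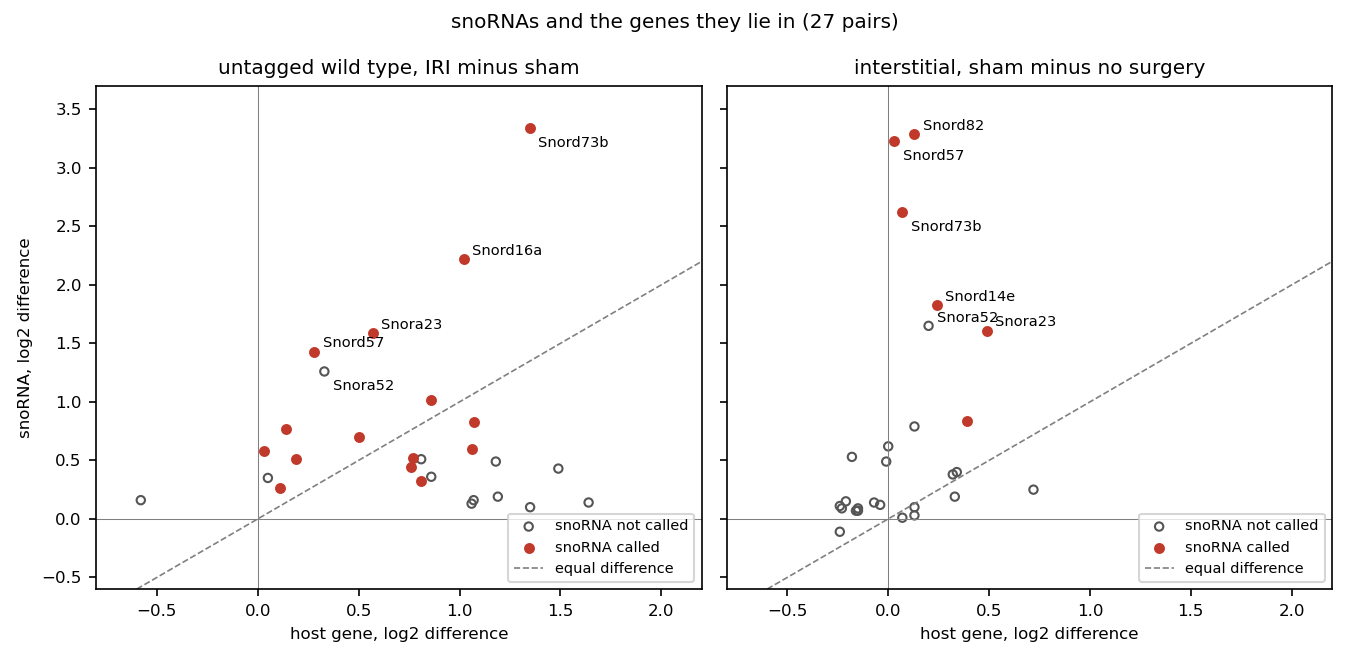
Log2 difference of each snoRNA (vertical) against that of its host gene (horizontal) for 27 pairs, in untagged mice (IRI minus sham, left) and interstitial mice (sham minus no surgery, right); filled points are snoRNAs called by limma and the dashed line marks equal differences. On the right, Snord57, Snord73b and Snord82 rose by 2.62 to 3.29 while their hosts differed by 0.03 to 0.13.

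Pairs of members in 1 host varied in how closely they followed each other over the 51 TRAP arrays. Pearson r was 0.87 for Snora73a and Snora73b in Snhg3, 0.74 for Snora16a and Snora44 in Snhg12 and for Snord95 and Snord96a in Rack1, and 0.73 for Snord33 and Snord35a in Rpl13a. It was 0.49 for Snora75 and Snord82 in Ncl and 0.25 for Snord42a and Snord42b in Rpl23a.

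The genes whose array values were most like the median member over the 51 TRAP arrays were the let-7 precursor gene Mirlet7e (r = 0.90), Mir7-1 (0.90), 1700109H08Rik (0.90), Spaca6 (0.89) and the nuclear RNA gene Firre (0.88). For Snora21 the most alike were Foxf1 (r = 0.95), Islr2 (0.91), Rrh (0.90), Sdcbp2 (0.89) and the endothelial adhesion molecule gene Sele (0.89). For Snord42b they were Spry2 (0.74), Phlda1 and Pvr (0.73 each), and Hspb1 and Adm (0.72 each). For Snord73b they included the members Snord35b (0.94) and Snord15b (0.91).

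Each tagged line was also set against the untagged pull-downs, which show what kinds of RNA the beads hold without a tag. TRAP arrays had like median intensities (105.8 to 128.4) after normalization. Values are therefore levels relative to the other RNA of an array, and not amounts that the beads held. Higher and lower are meant in that sense here. The comparisons share the untagged arrays. After IRI, snoRNAs were lower in tagged pull-downs of 3 lines. In nephron, 29 of 47 members were lower and 1 higher, beside 18.7% of genes lower and 25.3% higher. In endothelial, 29 were lower and 1 higher, beside 23.0% and 26.5%. In myeloid, 35 were lower and 0 higher, beside 30.4% and 27.8%. In L10a mice without Cre, 28 were lower and 1 higher, beside 20.4% and 26.1%.

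In interstitial arrays 7 members were lower and 3 higher than in untagged mice, beside 16.3% of genes lower and 17.8% higher. Without interstitial IRI replicate 1 the total called was 6 in place of 10, and it was 2 in a fit of these 2 groups alone and 17 with TRAP arrays only. Class medians after IRI were -0.61 (box C/D) and -0.51 (H/ACA) in nephron, -0.53 and -0.50 in endothelial, -0.80 and -0.56 in myeloid, -0.60 and -0.50 in L10a without Cre, and -0.12 and -0.09 in interstitial. Medians of all genes lay between -0.06 and 0.00.

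Snord73b showed the widest gap. Against the untagged mean of 9.24 it was at 5.03, 4.90 and 4.90 in nephron IRI arrays, 4.97, 4.96 and 5.06 in endothelial and 4.88, 5.18 and 5.07 in myeloid. These arrays all lay below the lowest untagged IRI array (7.55), with differences of 4.20 to 4.29 and folds of 19.6, 19.0 and 18.4 lower (limma adjusted p = 1.7e-10, 1.5e-10 and 1.5e-10). Snord57 was 9.06-fold lower in nephron, 12.1-fold lower in endothelial and 9.46-fold lower in myeloid (limma adjusted p = 1.2e-06, 7.6e-08 and 5.6e-07).

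The exceptions were few. Snora21 was 7.18-fold higher in endothelial than in untagged IRI arrays (9.08 against 6.24 on average, limma adjusted p = 1.7e-18) and 1.78-fold higher in L10a without Cre (1e-05). Snord42b was 1.36-fold higher in nephron (limma adjusted p = 0.029), with arrays that overlapped. Snora21, Snord42b and Snord96a were higher in interstitial, by 0.52, 0.67 and 0.50 (limma adjusted p = 0.011, 0.0015 and 0.002), also with overlap. The nephron call of Snord42b and the interstitial calls of Snora21 and Snord96a were lost in fits of only the groups compared. The first was also lost without nephron replicate 2 or 3 or untagged replicate 1, 2 or 3, that of Snora21 without interstitial replicate 2 or untagged replicate 3, and that of Snord96a without interstitial replicate 1.

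The other short or nuclear RNAs, a list that includes Rnu3a and the Scarna genes, took the same side: 10 of 16 were lower in nephron, 9 in endothelial, 9 in myeloid, 7 in interstitial and 12 in L10a without Cre, and 1 was higher, in endothelial. Malat1 was 2.42 lower in nephron and 1.74 lower in myeloid (limma adjusted p = 2.9e-08 and 1.1e-05). Ribosomal protein genes took the opposite side, with 25 of 42 higher and 2 lower in nephron, and 23 higher and 1 lower in myeloid. Of genes for particle and assembly proteins, 12 of 20 were higher and 2 lower in nephron. Marker lists differed as well: against untagged arrays, 4 of 5 interstitial markers were lower in nephron, endothelial, myeloid and L10a arrays (1 was higher in L10a), and 2 of 5 were higher in interstitial arrays. Nephron markers were lower in all 5 comparisons, 4 of 6 in nephron arrays and 6 of 6 in interstitial arrays. The part of cell make-up in the snoRNA difference was not tested.

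After sham surgery, lower members numbered 4 in nephron, 10 in endothelial and 12 in myeloid, beside 19.5%, 26.4% and 24.8% of genes, and 1 member each was higher in nephron (Snora62) and endothelial (Snord42b), beside 28.8% and 29.5%. Fits of only the groups compared gave totals of 17, 28 and 23 in place of 5, 11 and 12. Without untagged sham replicate 2 the totals were 2, 5 and 5. Without untagged sham replicate 1, nephron and endothelial gave 2 and 7, without nephron sham replicate 1 or 3 nephron gave 3, and without endothelial sham replicate 2 endothelial gave 7. Of markers, 4 of 5 interstitial markers were lower in each of the 3 lines, 5 of 5 endothelial markers were lower in nephron, and 6 of 6 nephron markers were lower in endothelial and myeloid. Their part was not tested. Snord57 was lower in each of the 3 lines, by 1.83, 2.28 and 2.32 (limma adjusted p = 0.01, 0.0013 and 0.0011), against 8.58 and 8.79 in the untagged arrays, and its nephron call was lost without untagged sham replicate 2.

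In the interstitial line after sham, 9 members were higher than in untagged mice and 0 lower, beside 22.2% and 19.8% of genes, and the count was 4 without untagged sham replicate 2 and 14 in a fit of these 2 groups alone. Beside this, 4 of 5 endothelial markers were lower and 1 higher, 3 of 5 myeloid markers were higher and 1 lower, and their part was not tested. Snord82 was 5.45-fold higher (9.94 against 7.49 on average, limma adjusted p = 0.012) and Snord73b 3.51-fold higher (7.71 against 5.90, limma adjusted p = 0.0063). For both, the 3 interstitial arrays lay above both untagged arrays, but both calls were lost without untagged sham replicate 2, and that of Snord82 also without replicate 1.

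Set side by side, box C/D and H/ACA members lay on the same side of 0 in their medians in each of these comparisons. Median rises were 0.54 for box C/D and 0.44 for H/ACA in untagged IRI, 0.40 and 0.19 in interstitial sham against no surgery, and 0.24 and 0.08 in total RNA. They were 0.18 and 0.25 in interstitial IRI and 0.15 and 0.19 in endothelial IRI. The 3 largest rises in interstitial sham, of Snord57, Snord73b and Snord82, were of box C/D members, while the largest rise within a tagged line after IRI was that of Snora21, an H/ACA snoRNA. The difference between the classes was not tested.

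**Figure D4:**
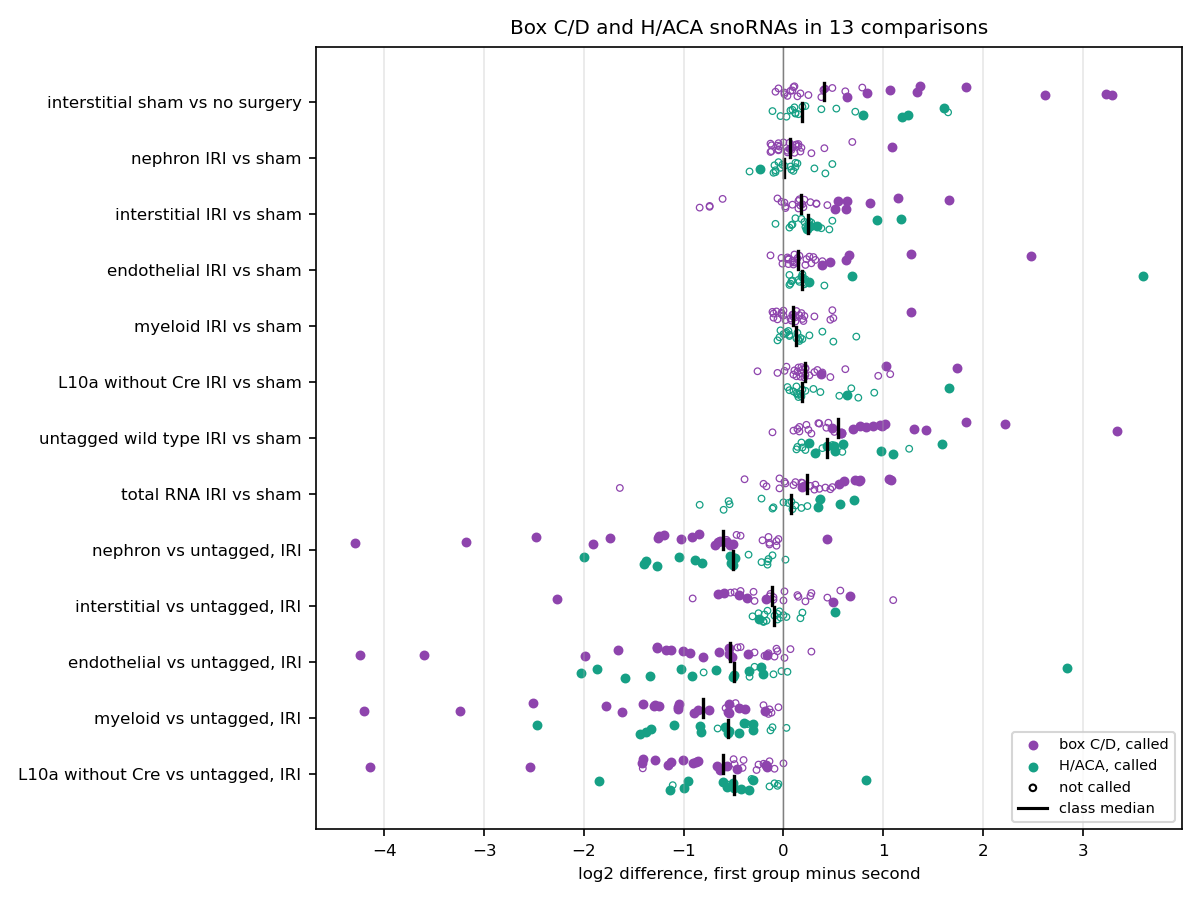
Log2 differences of the 28 box C/D and 19 H/ACA members in 13 comparisons, first group minus second, with filled points for members called by limma and black lines for class medians. Points lay mostly right of 0 in untagged IRI against sham and left of 0 for nephron, endothelial, myeloid and L10a IRI arrays against untagged ones.

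The difference between the untagged response and the mean response of the 4 lines was tested directly. It called 11 members higher and 1 lower, beside 14.5% and 9.86% of genes. Snord73b had the largest excess, 3.44 ± 0.57 (limma adjusted p = 1.3e-05), followed by Snora23 with 1.05 ± 0.31 (0.011), Snord35b with 1.02 ± 0.32 (0.016) and Snord15b with 0.99 ± 0.32 (0.018). Snora21 went the other way, by -0.72 ± 0.20 (0.0066). The total of 12 was 7 without untagged IRI replicate 3 or untagged sham replicate 1, and 3 without untagged sham replicate 2. Snord73b was called in each of these, Snora23 was lost without sham replicate 2 and Snora21 without sham replicate 1. Snord15b was lost without IRI replicate 3 or sham replicate 2, and Snord35b when any of these 3 arrays was left out.

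In whole-kidney total RNA, 12 of 47 members were higher after IRI and 0 lower, 8 of 28 box C/D and 4 of 19 H/ACA, beside 15.7% of genes in each direction. Snord16a was at 5.13, 5.69 and 5.61 after IRI and 4.38, 4.38 and 4.41 after sham, a separated rise of 1.08 ± 0.26 (limma adjusted p = 0.0012). For Snord118 and Snord22 the rise rested on 1 array: Snord118 was at 4.82, 6.90 and 4.03 against 4.23, 4.09 and 4.23, and Snord22 at 4.19, 4.45 and 6.14 against 4.19, 4.18 and 4.12 (limma adjusted p = 0.0035 and 0.0068). Each call was lost without that array. Snord57 was at 10.42, 9.82 and 10.30 after IRI and 10.35, 10.23 and 10.46 after sham, so its groups overlapped. The total RNA IRI arrays differed among themselves: Snora52 was at 11.53, 11.41 and 7.52 and Snord82 at 8.74, 9.35 and 5.19, and the count of 12 became 20 without IRI replicate 1, 19 without replicate 2, and 2 when only these 6 arrays were fitted. In the same comparison 6 of 6 nephron markers fell, 2 of 5 interstitial markers rose, 1 of 5 myeloid markers rose and 1 fell, and 1 of 3 collecting duct markers fell. Their part was not tested.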

How the data were processed

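The deposited values are linear probe set intensities on the Affymetrix Mouse Gene 1.0 ST array, which the authors made with RMA in Affymetrix Expression Console 1.3.1, per the submitters' processing notes; the plan had presumed log2 values, and their log2 was taken first. RNA came from RNeasy columns, per the labels' protocols. Of 35556 probe sets, the platform table gives 21789 a single symbol, 1621 more than 1 and 12146 no symbol, and 19938 genes were named. The highest-mean probe set stood for a gene, and genes above log2 5 in 3 or more arrays (19302) were tested.

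All 57 arrays entered 1 limma 3.58.1 fit (R 4.3.3, 19 groups, 38 residual degrees of freedom, median residual SD 0.154). Adjusted p values are Benjamini-Hochberg over 19302 genes, and the call was at 0.05. Errors are limma standard errors. Each p value sets a group difference against 1 estimate of spread per gene, drawn from all 19 groups and moderated across genes. It thus does not rest on the scatter of the compared groups alone. The number of arrays limits the precision. The fit was tested on simulated data. Age and array batch were no covariates. Where the groups compared differ in age, age and the named difference cannot be told apart. Positions, host genes and sequences come from RefSeq on GRCm38.p6. Sequences of other snoRNAs are not printed.

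The members and lists were chosen with earlier results of these data known. Named members are up to 5 called with the largest rise and fall in each comparison, a fixed panel (7 measured), called list genes with large differences, and the genes most alike over 51 TRAP arrays. Replicate values printed for members not called, the members whose nearest genes are given, the members in the figures and the host sequences were chosen after values were seen. The alternatives were another fit, filter, probe set rule or scaling, a replicate block, and each replicate left out. Matplotlib 3.10.9 under Python 3.11.15 made the plots.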

Additional observations from a re-analysis of the deposited data

Results flagged for a closer look

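In 6 of 94 sets of 4 arrays, 1 array stood far from the other 3, where chance gives about 1 in 20. In untagged IRI arrays these were low values of 6.25 for Snora3 and 8.31 for Snord55 and values of 5.24 for Snora33 and 5.54 for Snord73a at one end of their range. In L10a IRI arrays without Cre they were 6.62 for Snord49b and 5.12 for Snord87.

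The response to IRI differed between untagged mice and the mean of the 4 lines for 12 members, by the limma test of that difference. It was larger in untagged mice by 3.44 for Snord73b, 1.05 for Snora23, 1.02 for Snord35b, 0.99 for Snord15b, 0.93 for Snord49b, 0.83 for Snord16a, 0.80 for Snora73a, 0.78 for Snord33, 0.78 for Snord35a, 0.60 for Snord37 and 0.37 for Snora70 on the log2 scale, and it was -0.72 for Snora21. Among the 4 lines the responses differed for Snora21 (limma adjusted p = 7.8e-15), Snord16a (2.3e-05), Snord42b (0.0038), Snord55 (0.0089), Snord14e (0.035) and Snora62 (0.043).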

How the results depend on the processing

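Counts are members called of 47, with the value reported above in brackets. No count or named member turned its direction under any alternative run. Fitting only the groups compared gave nephron IRI at 24 h 4 (2), at 4 h 14 (1) and 24 h against 4 h 8 (2), interstitial IRI 6 (12), endothelial IRI 19 (9), myeloid IRI 7 (1), L10a IRI 13 (5), total RNA 2 (12), nephron sham against no surgery 1 (0), the lines without surgery 6 (1), interstitial against untagged IRI 2 (10), and against untagged sham nephron 17 (5), interstitial 14 (9), endothelial 28 (11) and myeloid 23 (12). Chosen after seeing the data, a fit of TRAP arrays only gave endothelial IRI 14, myeloid IRI 3, nephron 4 h 4, L10a IRI 10, nephron sham against no surgery 1, interstitial sham against no surgery 20 (13), nephron against untagged sham 10, interstitial against untagged IRI 17 and the lines without surgery 5. Also chosen then, leaving interstitial IRI array 3 out of the whole fit gave interstitial IRI 20, nephron 4 h 5, L10a IRI 11, the lines without surgery 2 and the 4 IRI responses 14 (6). Quantile normalization gave myeloid IRI 2 and nephron 4 h 3, and the mean of probe sets gave myeloid IRI 2. No comparison had every same-numbered pair of arrays correlated over 0.1. Deviations from the mean of so few arrays are tied to one another, so this check cannot decide whether replicate numbers pair the arrays. The replicate block gave L10a IRI 8, and moved no other count by over 1.5 times. The cause of these shifts was not tested.

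Leaving out each replicate in turn gave nephron IRI 1 to 2 at 24 h, 1 to 2 at 4 h and 1 to 3 for 24 h against 4 h, interstitial IRI 6 to 20, endothelial IRI 4 to 8, myeloid IRI 1 to 2, untagged IRI 14 to 23 (24), L10a IRI 3 to 8 and total RNA 8 to 20. Interstitial sham against no surgery gave 10 to 13, and the 3 other lines 0. Against untagged IRI it gave nephron 24 to 30 (30), interstitial 6 to 14, endothelial 25 to 30 (30), myeloid 30 to 35 (35) and L10a 26 to 32 (29), and against untagged sham nephron 2 to 4, interstitial 4 to 10, endothelial 5 to 11 and myeloid 5 to 10. The untagged response minus the lines gave 3 to 15 (12), the 4 IRI responses 4 to 14 and the lines without surgery 0 to 1. Of 94 named member results, those no longer past the threshold numbered 14 in the fit of only the groups compared, 1 of 89 run with TRAP arrays only, 3 without the interstitial array, 4 after quantile normalization, 3 under the block and 0 under the other 2 rules. Leaving out 1 replicate lost 94 of 724 such calls.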
